A study of Homo sapiens with 3 samples.

Results

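H3K4me3 peaks that lay near a protein-coding gene start and also carried H3K27ac were examined in H2087 cells, an established human lung adenocarcinoma cell line that was left untreated. Chromatin immunoprecipitation followed by sequencing (ChIP-seq) gave 1 library for each mark, with antibodies against histone H3 trimethylated at lysine 4 (H3K4me3) or acetylated at lysine 27 (H3K27ac), while 1 input library was not used here. The data were the positions of the called peaks, each with a −log10 q, the strength of the call. The peaks described here were selected on these measured positions: an H3K4me3 peak had to share at least 1 bp with an H3K27ac peak, and its edge had to lie within 3 kb of the outer 5′ end of a protein-coding gene. This gave 3736 peaks with both marks among 11183 promoter H3K4me3 peaks and 18585 H3K4me3 peaks in all. The share was 33.4% of the promoter peaks (95% interval 32.5 to 34.3), beside 31.1% of all H3K4me3 peaks. The remaining 7447 promoter peaks had no H3K27ac peak on them, and a further 2037 H3K4me3 peaks with H3K27ac lay away from starts. Each mark had n = 1, so no comparison could be tested against replicates. Intervals are 95% intervals that cover counting error only and take neighbouring peaks as independent. Sequencing depth is unknown from peak lists, and an absent peak cannot be told apart from too few reads.

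H3K4me3 is deposited by SET1 and MLL methyltransferase complexes and is concentrated on the nucleosomes that flank the start sites of active and poised genes. H3K27ac is deposited mainly by the acetyltransferases p300 and CBP and is found at active promoters and enhancers. A promoter that carries both is commonly read as active, while H3K4me3 without H3K27ac also occurs at weakly used or poised promoters, many of them in CpG islands. ChIP-seq reads a pool of cells, so overlapping peaks cannot be told apart from marks on different cells or alleles of the pool.

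Sequence upstream of the start was read from the hg19 genome for some of the leading peaks, to give examples of the promoters involved. The 250 bases upstream of the annotated start were taken for 6 of the genes named below, in which they overlapped no exon. These 6 need not be all the named genes that meet this condition. As examples, 4 of them are shown, 5′ to 3′ in the direction of the gene. The stretches of PARD3 (80% GC) and MARCHF9 (76% GC) are not shown and were richer in GC than the 4, so the 4 do not represent the full range. Capitals mark the GC box (GGGCGG or its complement CCGCCC) and the TATA box (TATAAA). The CTDSP2 stretch (chr12:58240513-58240762, minus strand) lay under the strongest peak, with 226 of its 250 bases under H3K4me3 and 236 under H3K27ac. The IGFBP6 stretch (chr12:53490970-53491219, plus strand) was wholly under both marks and held none of the motifs examined. The SKP1 stretch (chr5:133512656-133512905, minus strand) was wholly under H3K4me3 with 0 bases under H3K27ac, although the same H3K4me3 peak met H3K27ac elsewhere. The DAZAP2 stretch (chr12:51632258-51632507, plus strand) had 0 bases under either mark and lay before a gene whose 2 peaks with both marks were downstream.
CTDSP2: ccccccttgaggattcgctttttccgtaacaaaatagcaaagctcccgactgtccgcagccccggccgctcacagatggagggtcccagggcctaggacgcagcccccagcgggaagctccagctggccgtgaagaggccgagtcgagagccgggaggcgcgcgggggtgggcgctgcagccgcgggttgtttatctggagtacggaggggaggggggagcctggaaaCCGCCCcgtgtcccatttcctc
IGFBP6: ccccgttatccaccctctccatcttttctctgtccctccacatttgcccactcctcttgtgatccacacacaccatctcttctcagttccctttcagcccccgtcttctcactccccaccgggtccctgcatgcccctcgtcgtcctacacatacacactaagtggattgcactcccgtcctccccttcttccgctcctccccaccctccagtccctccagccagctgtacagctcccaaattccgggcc
SKP1: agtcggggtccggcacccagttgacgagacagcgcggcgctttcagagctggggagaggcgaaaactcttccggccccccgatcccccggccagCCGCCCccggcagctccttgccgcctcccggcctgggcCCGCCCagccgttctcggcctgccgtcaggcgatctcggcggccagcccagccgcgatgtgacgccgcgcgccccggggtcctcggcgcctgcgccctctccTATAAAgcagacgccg
DAZAP2: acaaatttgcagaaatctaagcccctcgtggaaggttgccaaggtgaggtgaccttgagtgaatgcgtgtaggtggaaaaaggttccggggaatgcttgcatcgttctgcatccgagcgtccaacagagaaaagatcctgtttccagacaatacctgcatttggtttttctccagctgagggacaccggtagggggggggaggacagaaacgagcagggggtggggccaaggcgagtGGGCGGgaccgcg
The SKP1 stretch was the richest in CpG of the 4, with 33 CpG dinucleotides and an observed over expected CpG ratio of 0.97, a measure of how far CpG has been kept against the base composition. CTDSP2 held 21 CpG (ratio 0.76), DAZAP2 12 (0.67) and IGFBP6 8 (0.58). The 4 stretches thus differed in composition. SKP1 was named for the width of its peak, and the strongest H3K27ac call on that peak was only 3.71 in −log10 q.

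The strongest H3K4me3 calls among the 3736 peaks had strong H3K27ac calls as well. The peak at CTDSP2, which encodes a phosphatase of the RNA polymerase II tail, was the highest in −log10 q, with 32.8 for H3K4me3 and 19.9 for H3K27ac. It was 3273 bp wide (chr12:58237466-58240738), covered the start and exon 1, and lay wholly under 1 H3K27ac peak of 3302 bp. A peak of 977 bp at ENSG00000257921, a gene without a symbol, followed with 28.7 for H3K4me3 and 15.7 for H3K27ac. At IGFBP6, an insulin-like growth factor binding protein, the peak of 1662 bp had 25.9 for H3K4me3 and 12.1 for H3K27ac, with 90.6% of its bases under H3K27ac. The peak in PARD3, a cell polarity gene, had 25.6 and 13.0, began 562 bp downstream of the start and touched no exon of the canonical transcript. A peak named after MARCHF9, a membrane-bound ubiquitin ligase, had 25.3 and 21.4. It lay 2832 bp upstream of that start and outside the gene. Peaks take the name of the nearest outer start, which need not be the gene they serve. ZHX1-C8orf76 was the last of the 6 with the highest H3K4me3 values, at 25.2 and 9.98.

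The order by H3K27ac was only partly the same. DAZAP2 led, with an H3K27ac peak of 1214 bp at −log10 q 29.0 that contained 2 separate H3K4me3 peaks. Those peaks were 276 bp and 575 bp wide and differed in H3K4me3, at 25.1 and 10.3, and the nearer began 161 bp downstream of the start. COMMD7, a COMM domain gene, was next with 23.2 for H3K27ac but only 6.08 for H3K4me3 (chr20:31330693-31331577). MARCHF9, CTDSP2 and TSFM, the mitochondrial translation elongation factor Ts, completed the 6 highest. TSFM had 15.9 for H3K27ac and 21.9 for H3K4me3. The members at MARCHF9, ENSG00000257921, TSFM and CTDSP2 lay in a stretch of 96.2 kb on chromosome 12 that held 9 of the peaks with both marks, a stretch noticed after the values were seen. Of these, 8 had an H3K4me3 −log10 q of at least 10, and their medians were 21.9 for H3K4me3 and 13.2 for H3K27ac.

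The plot of the calls of both marks shows these leading peaks apart from the body of the distribution. The median −log10 q was 3.87 (3.85 to 3.98, n = 3736) for the H3K4me3 peaks and 3.11 (3.05 to 3.21) for the strongest H3K27ac peak on each. In 35.3% of the peaks (33.8 to 36.9) the H3K27ac value was above the H3K4me3 value. The values of the marks were weakly related across peaks, with Pearson's r of 0.33 and Spearman's rho of 0.17 (n = 3736 peaks that share libraries, depth and in part partners). The scale of −log10 q depends on the depth of each library, so the values rank peaks within a list and do not compare the amount of the marks.

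**Figure D1:**
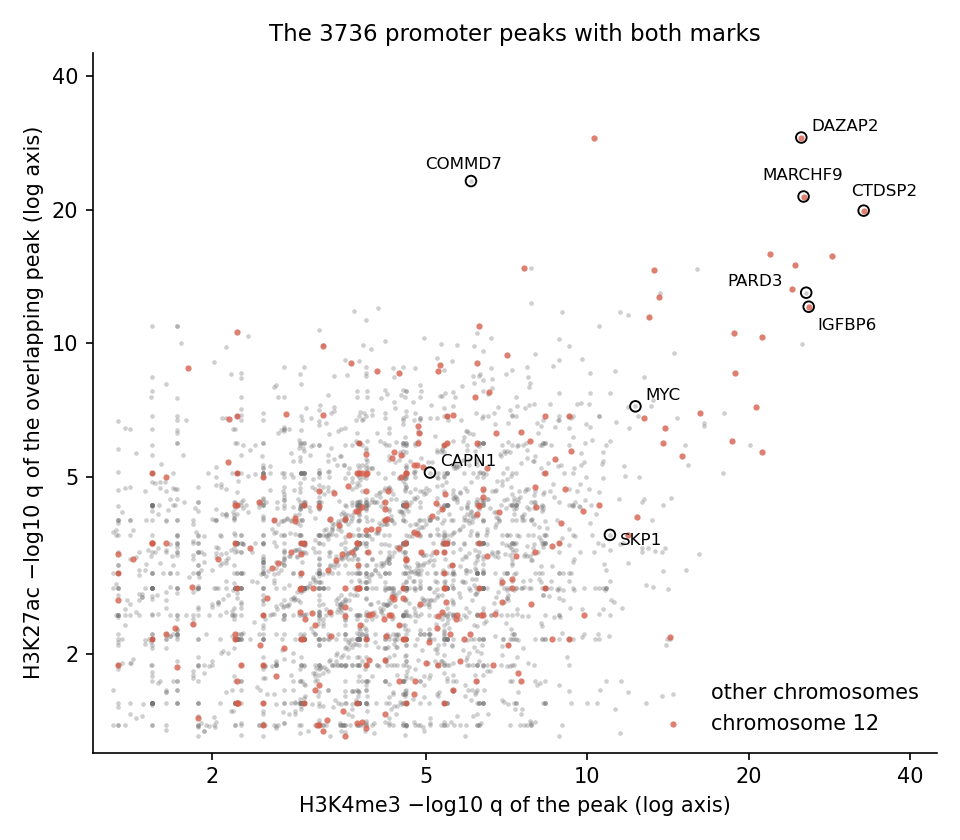
H3K4me3 −log10 q of each promoter peak with both marks against the −log10 q of the strongest overlapping H3K27ac peak, on log axes, with chromosome 12 in red and named genes circled. Most of the 3736 peaks form a cloud around the medians of 3.87 and 3.11, and CTDSP2, IGFBP6, PARD3, MARCHF9 and DAZAP2 lie at the upper right.

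MYC, the growth-promoting transcription factor, had the widest peak with both marks, at 4275 bp over exons 1 to 3 (chr8:128748599-128752873), with 12 summits and 4 H3K27ac peaks that together covered 70.1% of it. LRATD2 followed at 4141 bp with 82.6% under H3K27ac, and CTDSP2 at 3273 bp. ZGPAT, a zinc finger repressor, had 2946 bp. FBXO32, the F-box protein also called atrogin-1, had 2904 bp, and SKP1, the adaptor that ties F-box proteins into ubiquitin ligases, had 2693 bp. In ZGPAT, FBXO32 and SKP1, less of the peak was under H3K27ac (41.7%, 42.4% and 38.1%) than in MYC, LRATD2 or CTDSP2. Width and strength were different orders: the H3K4me3 −log10 q was 12.3 at MYC, 16.1 at LRATD2 and 11.03 at SKP1.

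At the limits of the selection, the peaks at BAIAP2 and PUM2 shared only 2 bp with H3K27ac and were kept, whereas those at FKBP2 and ENSG00000261884 adjoined an H3K27ac peak with a gap of 0 bp and were not. The furthest peaks kept lay 2999 bp from the start of CERK and 2981 bp from that of CPT1A. Just outside were peaks with both marks 3003 bp from ZC3H12A and 3004 bp from FRAT2. These border peaks ranged from weak to strong, with an H3K4me3 −log10 q of 1.31 at CERK and 11.5 at CPT1A. Under 50 bp were shared in 122 peaks (3.27%).

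Promoter peaks with H3K27ac were wider and had stronger H3K4me3 calls than promoter peaks without it. Their median width was 444 bp (435 to 455, interquartile range 297 to 654), against 308 bp (304 to 312) for the 7447 others. The median −log10 q was 3.87 against 2.97. A width of at least 1 kb was reached by 262 peaks (7.01%) with H3K27ac and 78 (1.05%) without it, a difference of 5.97 percentage points (5.15 to 6.85). A −log10 q of at least 10 was reached by 135 (3.61%) and 38 (0.510%), and more than 1 summit was present in 17.6% and 4.81%. Width entered the selection, because a wider peak has more bases that can meet an H3K27ac peak, so these values describe the selected peaks and support nothing further.

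The share of promoter peaks that carried H3K27ac rose with width and, less evenly, with strength. It was 19.2% (17.8 to 20.7) of peaks under 250 bp, 34.4% (32.6 to 36.4) of peaks from 350 to under 500 bp and 66.6% (63.3 to 69.8) of peaks of 800 bp or more. When the 11183 promoter peaks were divided into 10 parts by H3K4me3 −log10 q, the share was 19.7% (17.4 to 22.1) in the lowest part and 59.3% (56.3 to 62.2) in the highest. Even among the 832 promoter peaks of 800 bp or more, 278 carried no H3K27ac peak.

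**Figure D2:**
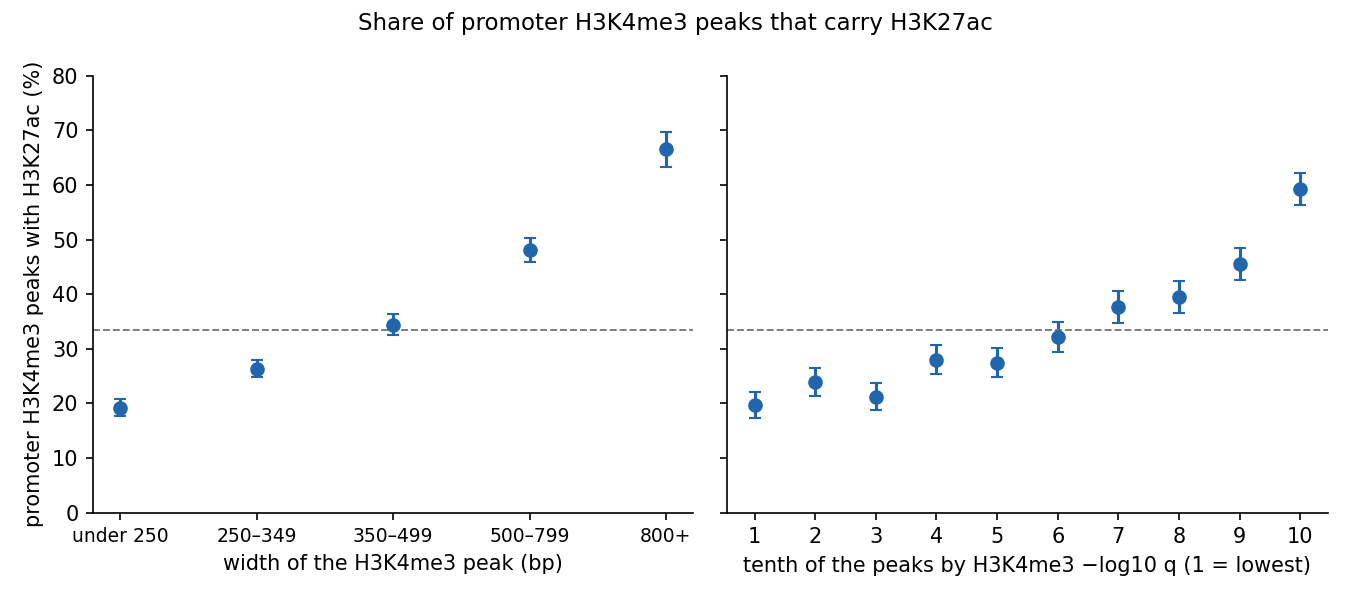
Percent of promoter H3K4me3 peaks that carry H3K27ac, by width of the H3K4me3 peak (left) and by its −log10 q in 10 parts from low to high (right). Points are shares with exact 95% intervals, the dashed line is the 33.4% of all promoter peaks, and the share runs from 19.2% to 66.6% on the left and from 19.7% to 59.3% on the right.

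Overlap of the marks was the rule of selection, so its extent describes the selected peaks only. Of these, 2475 (66.2%) were at least 50% under H3K27ac, and the marks seldom had the same ends. The shared stretch had a median of 259 bp (254 to 264), or 63.4% (62.0 to 65.1) of the H3K4me3 peak. The H3K4me3 peak contained the H3K27ac peak in 1231 cases (32.9%), lay wholly inside H3K27ac in 482 (12.9%) and overhung it in 2026 (54.2%), and 3 pairs had the same ends. The centres of the marks were a median of 107 bp apart (102 to 112). In the direction of transcription the H3K27ac centre was displaced by a median of −9 bp (−13.5 to −3.5), a small upstream shift beside an interquartile range of −123 to 92 bp. The H3K27ac peak was narrower, with a median of 344 bp (337 to 352). Only 119 peaks (3.19%) met 2 or more H3K27ac peaks.

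Most of these peaks lay just downstream of the gene start rather than on it. The centre was downstream of the nearest start in 79.5% (78.2 to 80.8), at a median position of 475 bp (461 to 495), and the edge lay within 500 bp of the start in 61.6%. Only 217 peaks (5.81%, 5.08 to 6.61) covered the start itself, which was close to the 5.53% of promoter peaks without H3K27ac (difference 0.28 points, −0.61 to 1.21). This share depends on which starts are used: it was 30.2% when every transcript start of a gene counted and 4.90% with canonical transcripts, a set added after the values were seen. Neither the H3K4me3 nor the H3K27ac peak covered the start in 92.5% of cases. In peaks of 350 to under 500 bp, those with H3K27ac covered the start less often than those without it, 3.41% against 6.18% (difference −2.77 points, −4.41 to −0.97). The same held at 500 to under 800 bp, with 6.75% against 9.95% (−3.20, −5.58 to −0.82), and the intervals of the other width classes included 0.

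Around the 3149 starts nearest to these peaks, cover by any H3K4me3 peak had a trough at the start and a larger shoulder downstream. Cover by any H3K27ac peak had the same shape. At the start, 8.54% of them were under an H3K4me3 peak and 5.87% under an H3K27ac peak. At 400 bp downstream the shares were 53.4% and 41.1%, and at 400 bp upstream 21.0% and 15.7%. The plot of peak cover shows the downstream shoulder as the higher for both marks. Counted per gene, 2448 of the 3762 genes near such a peak (65.1%) had them downstream only, 692 (18.4%) upstream only, 386 (10.3%) on both sides without cover of the start, and 236 (6.27%) had the start covered. The curves count every peak of each mark at starts chosen for a peak with both marks, so they describe those starts and support nothing further. The overlap of the marks was the rule, and the outer 5′ end places the other starts of a gene downstream: with every transcript start, the downstream share of centres was 70.5% in place of 79.5%.

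**Figure D3:**
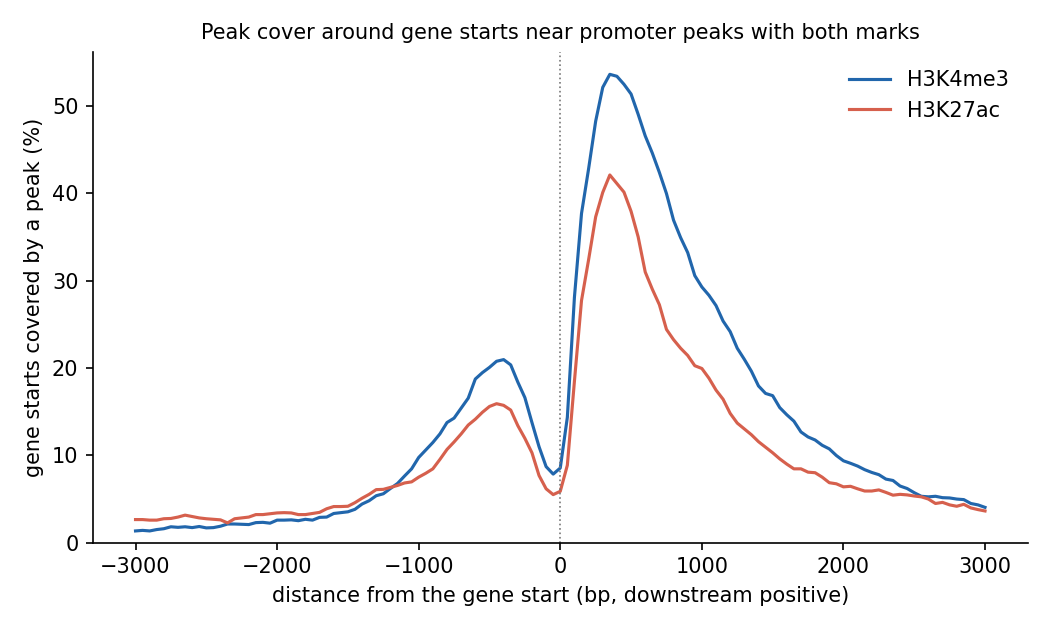
Percent of the 3149 gene starts nearest to a promoter peak with both marks that are covered by an H3K4me3 or an H3K27ac peak, by distance from the start in bp, downstream positive. Both curves fall at the start (8.54% and 5.87%) and are highest about 350 bp downstream (53.6% and 42.1%), with a lower shoulder upstream.

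The difference in position from promoter peaks without H3K27ac was modest. Centres were downstream in 75.9% of the latter, 3.63 points fewer (1.99 to 5.23), but in none of the 5 width classes did the interval of this difference exclude 0. The share with H3K27ac was highest for peaks centred 500 to 750 bp downstream (40.7%, 38.1 to 43.3) and 250 to 500 bp downstream (39.8%, 37.8 to 41.8), against 26.4% (23.7 to 29.3) from 0 to 250 bp. Peaks from 0 to 250 bp were also the narrowest, with a median of 287 bp over all promoter peaks there, against 434 bp from 500 to 750 bp. Peaks with H3K27ac overlapped an annotated exon in 70.9% of cases and coding sequence in 40.1%, against 57.4% and 29.6% for those without. They lay in a gene without touching an exon in 22.6% against 33.1%. Peaks with H3K27ac were also wider, and these exon and coding shares were not compared at equal width.

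In base composition the selected peaks resembled other promoter peaks and differed from H3K4me3 peaks with H3K27ac away from starts. Their median GC content was 64.2% (63.8 to 64.6) and their CpG ratio 0.66 (0.66 to 0.67), against 62.2% and 0.65 in promoter peaks without H3K27ac. The share called CpG-rich, with a CpG ratio of at least 0.6 and at least 55% GC, was 55.5% against 50.1%, a difference of 5.40 points (3.44 to 7.35). In 4 of the 5 width classes the interval of that difference included 0, the exception being 250 to under 350 bp (54.5% against 48.7%). The 2037 distal peaks with H3K27ac had a median CpG ratio of 0.34 (0.32 to 0.36) and a median width of 314 bp. More of each distal peak was under H3K27ac, 80.8% (78.9 to 83.4), and the H3K27ac −log10 q was 3.39 (3.25 to 3.46), slightly above that of the promoter peaks. The selected peaks themselves varied: 648 (17.3%) had a CpG ratio under 0.4, and these lay further out, at a median of 880 bp downstream against 424 bp for the CpG-rich.

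By gene, 3762 of 20163 protein-coding genes (18.7%, 18.1 to 19.2) had a start within 3 kb of at least 1 of these peaks. A further 4960 (24.6%) had H3K4me3 near the start but no peak with both marks, and in 1149 of those an H3K27ac peak was also within 3 kb without touching H3K4me3. H3K27ac without H3K4me3 was found at 1125 genes (5.58%), and neither mark at 10316 (51.2%). Of the selected peaks, 2902 (77.7%) were near 1 start and 834 near more, so a peak can count for neighbouring genes. Among the genes, 3024 had 1 such peak, 606 had 2 and 132 had 3 or more.

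The median CpG ratio was higher at marked than at unmarked genes. It hardly differed between genes with both marks and genes with H3K4me3 but no peak with both marks. In the window from 250 bases before to 50 after the start, the median CpG ratio was 0.83 (0.82 to 0.83) at genes with both marks. It was 0.82 (0.81 to 0.82) at genes with H3K4me3 but no such peak, 1149 of which had H3K27ac within 3 kb. At genes with H3K27ac but no H3K4me3 it was 0.70 (0.67 to 0.74), and at genes with neither mark 0.43 (0.42 to 0.44). Of the genes with neither mark, 32.7% still had a CpG-rich start. Of CpG-rich starts, 26.7% (25.8 to 27.6) had a peak with both marks, against 10.4% (9.82 to 11.03) of the rest. Among starts with H3K4me3 the shares were 43.5% (42.2 to 44.7) and 42.3% (40.3 to 44.3). Divergent starts, with an opposite-strand start at most 1 kb away on their upstream side, stood higher in both counts. They had a peak with both marks in 35.8% (33.5 to 38.1), against 17.1% of other starts, and in 50.9% (48.0 to 53.8) of those with H3K4me3, against 41.9% (40.8 to 43.0). Divergent genes lie close together, so the same peak can serve both.

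Promoter motifs, searched as exact letters on both strands of the same 300-base windows, gave a similar picture. Windows were grouped by the peaks within 3 kb of the gene start, so the window itself need not lie under a peak. The GC box GGGCGG, read by SP and KLF factors, occurred in 67.8% of windows at genes with both marks and 52.1% of all 20163 windows. With H3K4me3 but no peak with both marks it occurred in 69.2%. The TATA box TATAAA went the other way, in 5.64% with both marks, 6.31% with H3K4me3 but no such peak and 10.9% of all windows. It was in 15.3% of windows at genes with neither mark. The ETS motif CCGGAAGT occurred in 8.08% and 7.26%, beside 5.06% of all windows. The NFY motif CCAAT, the MYC and USF motif CACGTG, the CREB motif TGACGTCA, the AP-1 motif TGACTCA and the FOXA motif TGTTTAC differed by less than 1 point each between these 2 groups with H3K4me3. Of the 9 motifs, the interval of the difference excluded 0 for YY1 alone. Its letters AAGATGGC occurred in 4.89% (4.22 to 5.63) with both marks and 3.61% (3.11 to 4.17) with H3K4me3 but no such peak. That difference of 1.28 points (0.43 to 2.16) stands beside 3.02% of all windows, and within CpG-rich windows the shares were 5.54% and 3.81%. The intervals were not adjusted for the number of motifs, and a match is a description of letters, not a bound site.

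Of 12 simple epithelial marker genes, 8 had a peak with both marks (66.7%, 34.9 to 90.1), beside 18.7% of all protein-coding genes. Of the 11 with H3K4me3, 72.7% (39.0 to 94.0) had one, an interval that includes the 43.1% of all genes with H3K4me3. The marker lists are short, their intervals overlap, and differences between them were not tested. KRT8 and KRT18, the keratin pair of simple epithelia, share the same 4 peaks, so they are not independent in these counts. The strongest of the 4 was 2103 bp wide with −log10 q 18.9 for H3K4me3 and 8.56 for H3K27ac, while another reached 14.8 for H3K27ac. KRT7, a ductal and lung keratin, had 4 peaks, the strongest at 9.85 for H3K4me3. CDH1, encoding E-cadherin, had 1 peak of 1179 bp (7.20), and KRT19, ELF3, ESRP1 and GRHL2 had at least 1 each. CLDN3, CLDN7 and EPCAM had H3K4me3 but no peak with both marks, although a separate H3K27ac peak lay near CLDN7 and EPCAM, and CLDN4 had neither mark. Of 11 lung adenocarcinoma and alveolar genes, FOXA1, MUC1 and NKX2-1 had a peak with both marks (27.3%, 6.02 to 61.0), an interval that includes 18.7%.

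FOXA1, a pioneer factor of airway and alveolar epithelium, had 4 such peaks with H3K4me3 from 3.61 to 9.50. NKX2-1, the lung lineage factor, had 1 peak of 937 bp with 3.18 for H3K4me3 and 7.28 for H3K27ac, centred 2689 bp downstream of the start used, and 95.2% of it was under H3K27ac. MUC1, a surface mucin, had 1 peak with 6.47% under H3K27ac. The surfactant genes SFTPA1, SFTPA2, SFTPB and SFTPC, the aspartic protease NAPSA and the phosphate transporter SLC34A2 had neither mark, SFTPD had H3K4me3 only and FOXA2 H3K27ac only. These 6 of 11 genes with neither mark stand beside 51.2% of all protein-coding genes. Among 6 markers of squamous epithelium, SOX2 had a peak with both marks and the other 5 (KRT5, KRT14, TP63, DSG3 and PERP) had neither mark. COL1A1 was the only fibroblast gene of 5 with such a peak. The 5 neuroendocrine, 5 blood and 3 endothelial genes had 0, with upper limits of 52.2%, 52.2% and 70.8% that include 18.7%.

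Among the gene lists, the AP-1 and immediate-early genes, the translation initiation factors and the cytosolic ribosomal proteins had the highest shares with both marks, beside 18.7% of all protein-coding genes and 43.1% of those with H3K4me3. For the 24 AP-1 and immediate-early genes the count was 13 (54.2%, 32.8 to 74.4), for 41 translation initiation factors 19 (46.3%, 30.7 to 62.6) and for 79 cytosolic ribosomal protein genes 36 (45.6%, 34.3 to 57.2). Where H3K4me3 was present, the shares were 56.5% (34.5 to 76.8), 59.4% (40.6 to 76.3) and 59.0% (45.7 to 71.4). Only the last interval excluded 43.1%. The strongest immediate-early examples were KLF10 (H3K4me3 −log10 q 9.72), FOSL1 (8.36), an AP-1 subunit with 4 such peaks, and ZFP36 (6.25), which promotes mRNA decay. EIF4B, a helicase cofactor, had 3 peaks with up to 15.0, EIF3B 8.88 and EIF6 8.68. Among ribosomal proteins RPL30 (10.5), RPL35A (8.01) and RPS3 (7.46) were highest.

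The other housekeeping and stress lists had lower shares, and differences between lists were not tested. Peaks with both marks were present at 14 of 37 complex I genes (37.8%), led by NDUFB10 (8.06), NDUFC1 (5.47) and NDUFV1 (5.20), and at 9 of 23 replication licensing and E2F genes, led by MCM4 (10.6), ORC1 (8.24) and POLE (5.47). ORC1 shares its peak with PRPF38A. Proteasome genes had 12 of 39, led by PSMD1 (6.30), PSMB3 and PSMA5, splicing factors 18 of 63, led by PRPF38A (8.24), LSM12 and SRSF9, and mitochondrial ribosomal proteins 21 of 77, led by MRPS5 (11.2), MRPL55 (10.8) and MRPL3. The aminoacyl-tRNA synthetases had 6 of 20, with CARS1, RARS1 and KARS1 between 5.41 and 5.89. Mediator subunits had 7 of 30, led by MED17 (7.09), MED22 and MED27. Of 20 p53 targets 7 had such a peak, led by TP53INP1 (14.3), ZMAT3 and RRM2B, and of 16 NRF2 targets 4, led by GCLM (9.32), TALDO1 and NQO1, the quinone reductase. The intervals of the proteasome, synthetase, splicing, mitochondrial ribosomal, Mediator, p53 and NRF2 groups included 18.7%. Those of the complex I genes (22.5 to 55.2) and the replication and E2F genes (19.7 to 61.5) lay above it. Where H3K4me3 was present, these groups had 56% (34.9 to 75.6) and 47.4% (24.4 to 71.1). Both intervals, like those of the other lists in this paragraph, included the 43.1% of all genes with H3K4me3.

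Lower shares were found in developmental and tissue-restricted families. A peak with both marks was present at 6 of 85 developmental homeobox and T-box genes (7.06%, 2.63 to 14.7), below 18.7%. Of the 26 with H3K4me3, 23.1% (8.97 to 43.6) had both marks, an interval that includes 43.1%. POU6F1 (13.0), NKX2-8 (4.75), a neighbour of NKX2-1, and NKX2-5 (4.35) led them. Among 39 HOX genes the count was 6 (15.4%, 5.86 to 30.5), an interval that includes 18.7%, with HOXC11 (8.04), HOXA7 (7.30) and HOXC9 (7.26) highest. C2H2 zinc finger genes named ZNF had 80 of 508 (15.7%, 12.7 to 19.2), which also includes 18.7%. Of their 232 members with H3K4me3, 34.5% (28.4 to 41.0) had both marks, below 43.1%. ZNF148 (10.7), ZNF768 (9.98) and ZNF740 (9.81) were highest. The clustered protocadherins had 0 of 53, olfactory receptors 0 of 414 (upper limit 0.887%) and keratin-associated proteins 0 of 94. Members of a family share sequence and neighbourhood, so their counts are not independent.

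**Figure D4:**
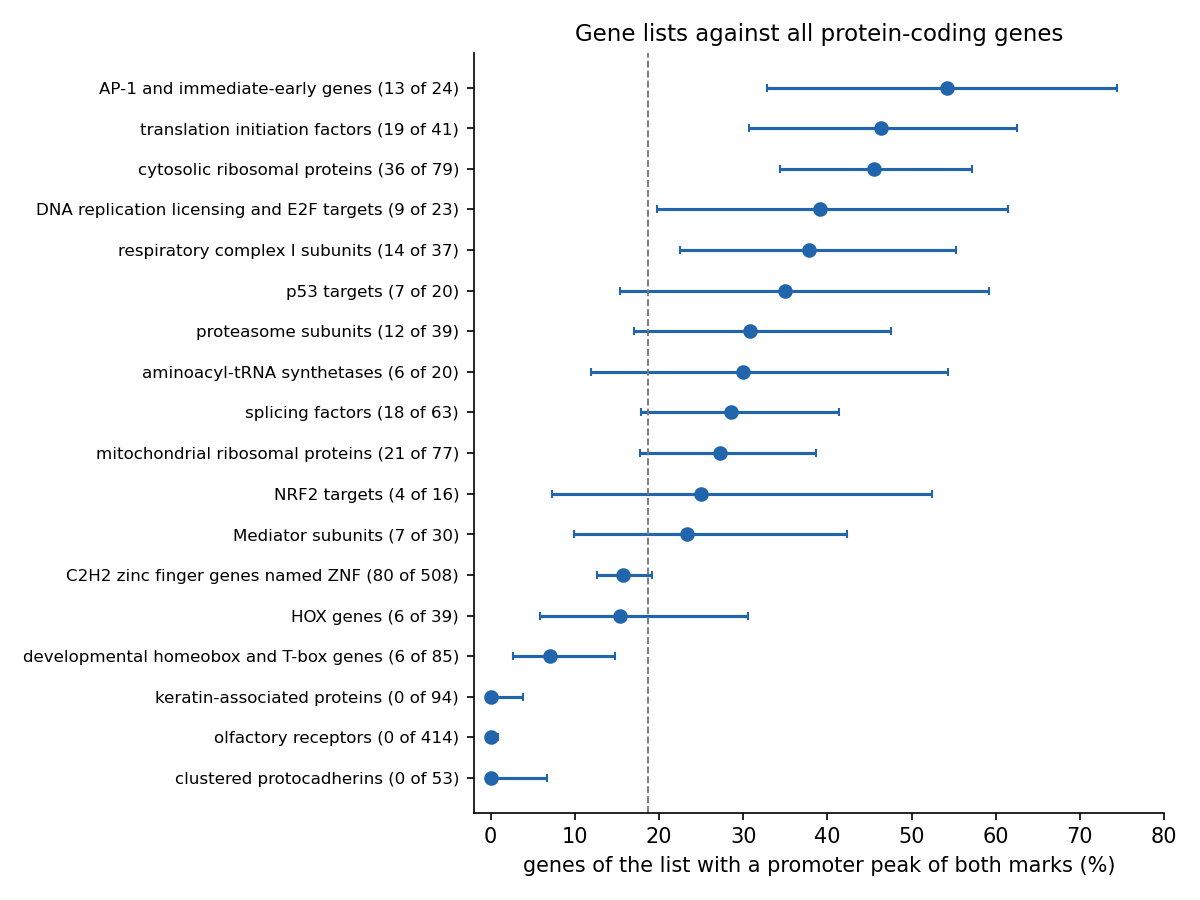
Percent of the genes of each list with a promoter peak of both marks, with exact 95% intervals and counts in the labels. The dashed line is the 18.7% of all protein-coding genes, and the lists run from 54.2% of immediate-early genes to 0 of the protocadherins, olfactory receptors and keratin-associated proteins.

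The chromosomes differed in how often a promoter H3K4me3 peak carried H3K27ac. Among those with at least 100 promoter peaks, the share was highest on chromosome 11 with 43.1% (39.8 to 46.5, 374 of 867), chromosome 12 with 41.6% (37.9 to 45.4, 283 of 680) and chromosome 8 with 38.7% (34.0 to 43.6, 161 of 416). These 3 intervals overlapped. It was lowest on chromosome 13 with 12% (6.87 to 19.0, 15 of 125), chromosome 6 with 18.5% (14.7 to 22.8, 70 of 378) and chromosome 4 with 23.2% (18.3 to 28.6, 64 of 276). On chromosomes 13 and 6 the selected peaks were also narrower, with medians of 277 and 340 bp against 475 bp on chromosome 11. The strongest calls were unevenly spread: of the 135 peaks with an H3K4me3 −log10 q of at least 10, 27 (20%) lay on chromosome 12, which held 7.57% of all selected peaks, and 49 (36.3%) lay on chromosomes 8 and 12 together, which held 11.9%.

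**Figure D5:**
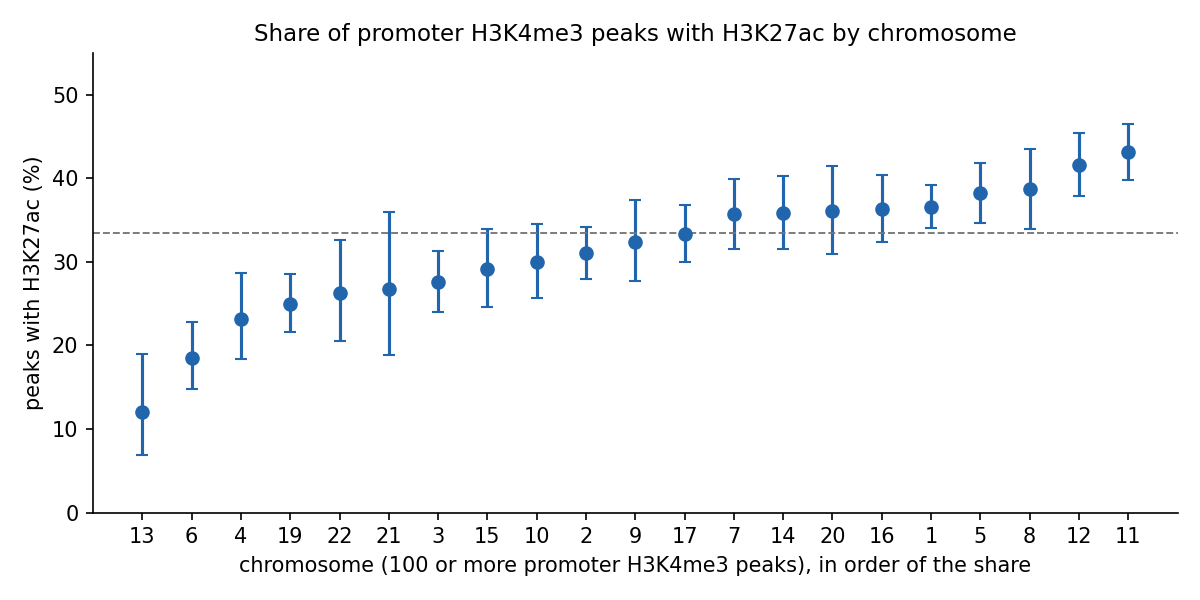
Percent of promoter H3K4me3 peaks that carry H3K27ac on each chromosome with at least 100 such peaks, in order of the share, with exact 95% intervals. The dashed line is the 33.4% of all promoter peaks, and the points run from 12% on chromosome 13 to 43.1% on chromosome 11.

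The study followed a genetic variant in the CAPN1 promoter and 1 in an intron of LINC00959, downstream of GLRX3, which the paper expected to regulate GLRX3. The genes CAPN1 and GLRX3 each had 1 peak with both marks near the start. The GLRX3 peak lay upstream of the gene and is not the site of the LINC00959 variant. The paper places the CAPN1 variant in an H3K4me3 peak of the CAPN1 promoter and the LINC00959 variant in an H3K27ac peak. It also reports enrichment of these marks at the variants by ChIP followed by quantitative PCR. Whether the CAPN1 peak described here is the one that holds the variant was not examined. At CAPN1, which encodes the catalytic subunit of a calcium-dependent protease, the peak was 1667 bp wide (chr11:64949440-64951106) and began 1403 bp downstream of the outer start, over exons 1 to 4 of the canonical transcript. Its −log10 q was 5.10 for H3K4me3, above 68.5% of the selected peaks, and 5.12 for H3K27ac, and 50.6% of it lay under 2 H3K27ac peaks. At GLRX3, a glutaredoxin of redox and iron handling, the peak of 444 bp (chr10:131934023-131934466) ended 189 bp upstream of the start. It had 5.26 for H3K4me3 and 5.77 for H3K27ac, with 77.9% under H3K27ac. Both were above the median H3K4me3 −log10 q of 3.87 and far below the strongest peaks, with a CpG ratio of 0.30 at CAPN1 and 0.32 at GLRX3, under the median of 0.66.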

How the data were processed

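ChIP-seq was carried out in untreated H2087 cells with 1 library per mark. According to the methods and the submitters' processing notes, reads were aligned to hg19 with Bowtie 1.1.1 and MACS2 2.1.0 called the peaks. The threshold and the use of the input in calling are not given in the sources used here. The deposited last column was read as −log10 q (of each summit) from its values, as the file has no header. Entries with the same interval were reduced to 1 peak, and the highest value was kept. Gene starts were the outer 5′ ends in GENCODE mapped to hg19 (GRCh37), and sequence came from the same build. Shares have Clopper-Pearson intervals, their differences Newcombe intervals and medians order-statistic intervals (scipy 1.17.1, statsmodels 0.14.6). The median intervals, the overlap of peaks and their distance to starts were checked on simulated data, and the other intervals were not. No test was made, because n = 1.

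The peaks and gene lists were chosen with earlier results of these data known. The genes named were the 6 highest peaks by H3K4me3 −log10 q, by width and by H3K27ac −log10 q, the peaks at the limits of the selection, CAPN1 and GLRX3, all cell type markers, and the 3 highest of each other list. Chromosomes were named by the 3 highest and the 3 lowest shares. Alternatives were stricter peaks, larger overlap, other starts or distances, merged peaks, and removal of chromosomes 8 and 12. PECAM1 was not matched in the annotation.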

Additional observations from a re-analysis of the deposited data

How the results depend on the processing

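Of 45 alternative values for 10 results, 20 moved beyond the limits set, which were 1.5 times for counts and the 95% interval of the reported value otherwise. Counts within that limit still ranged widely, from 3013 to 4610 peaks and from 2650 to 4338 genes. With only peaks at or above the median −log10 q of each list, there were 1794 peaks with both marks (26.9% of promoter peaks) at 2031 genes, with a median width of 520 bp, a −log10 q of 4.89, 67.3% under H3K27ac and 7.30% over the start. With at least 50% of the H3K4me3 peak under H3K27ac, the values were 2475 peaks, 22.1%, 383 bp, 4.77% over the start and 64.9% GC. Within 1 kb of a start, 35.4% carried H3K27ac and 7.20% covered the start. With every transcript start, 70.5% of centres were downstream and 30.2% of peaks covered a start, and with canonical starts, added after the data were seen, 4.90% did. Merging peaks within 1 kb gave 39.8% with H3K27ac, a median width of 893 bp and 50.3% under H3K27ac. Without chromosomes 8 and 12 none of the 10 results passed these limits. The centres were mostly downstream under all the alternatives run for that result.

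No paired analysis was possible because the labels give 1 library to each mark, and for the same reason no replicate was left out. Depth is unknown, which limits what an absent peak shows, and the −log10 q of the marks is not on a common scale.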

Other observations

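At least 5 separate peaks with both marks lay within 3 kb of 5 gene starts, which were chosen for naming after their values were seen. They were CAPN15, RACK1, SREBF1, TNRC18 and VWA1, each with 5 peaks. RACK1 encodes a scaffold on the small ribosomal subunit, and SREBF1 a transcription factor of lipid synthesis. The peaks at TNRC18 reached the highest values, an H3K4me3 −log10 q of 11.5 and an H3K27ac −log10 q of 11.7, not necessarily on the same peak. CAPN15 and SREBF1 reached only 5.41 and 5.42 for H3K4me3. A large number of peaks at a start thus occurred with moderate calls as well as with strong ones.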
